A study of Mus musculus with 35 samples.

Results

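The 10 genes described here are the endoplasmic reticulum (ER) stress genes Hspa5, Hyou1, Pdia4, Sdf2l1, Creld2, Herpud1, Xbp1, Atf4, Ddit3 and Trib3. They were taken by name from the 55413 genes of the deposited count table of a mouse liver study. All 10 were measured, and all 10 were among the 15297 genes that passed the filter on low counts. The study asked, by its title, what antisense oligonucleotides (ASO) against the methyltransferase Smyd3 do to liver tumours. The animals were 21 C57Bl6 mice. Untreated mice (n = 5) were harvested at day 260 after birth. All other mice had received 25 mg/kg of diethylnitrosamine (DEN, a liver carcinogen) into the peritoneum at day 14. Of these, 4 were harvested at day 133 without further injections and are called P133. From day 133 the others received 50 mg/kg of an ASO (a synthetic antisense strand made to pair with 1 target RNA) 2 times a week and were harvested at day 260. They received either a control ASO (n = 6) or Smyd3-ASO (n = 6). Untreated mice received neither DEN nor an ASO, and P133 mice differ from every other group in age, so only Smyd3-ASO over control-ASO compares mice that differ in 1 labelled factor. In the others DEN, injections or age cannot be told apart.

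Secretory cells such as hepatocytes fold a large flow of protein in the ER. When unfolded protein builds up, the sensors IRE1, PERK and ATF6 in the ER membrane start the unfolded protein response. IRE1 splices the RNA of Xbp1, ATF6 is cut and moves to the nucleus, and PERK slows translation while that of Atf4 goes up. The factors XBP1 and ATF6 turn on chaperones and degradation genes, and ATF4 turns on Ddit3, Trib3 and amino acid genes. Reads of the 3' end, as here, do not show the splicing of Xbp1 or the translation of Atf4, so only RNA amounts are given.

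Levels are in CPM, counts scaled to a common library total with TMM factors over all mice, with the standard deviation (SD) over mice. Changes are log2 fold changes from edgeR's quasi-likelihood test. Their standard error (SE) was derived as the size of the change over the square root of the test's F statistic. The 95% intervals use this SE with a plain t distribution, not the test's own, so interval and p can differ slightly. A gene is called higher or lower at an adjusted p under 0.05 (Benjamini-Hochberg over 15297 genes). Total counts per mouse ran from 4556484 to 20258619. Smyd3 stood at 0 to 0.758 CPM in Smyd3-ASO mice and at 3.11 to 4.64 CPM in control-ASO mice, which fits the labels. DEN samples are labelled as tumour tissue, yet the summed level of the tumour markers Afp, Gpc3, H19 and Igf2 was 1.26 to 4.24 CPM in P133 mice and 3.77 to 7.59 CPM in untreated mice. The same sum was 251 to 1088 CPM in control-ASO mice and 8.41 to 67.2 CPM in Smyd3-ASO mice. The 6 measured hepatocyte markers summed to 57518 to 111754 CPM in untreated, 40808 to 43965 CPM in P133, 50893 to 72695 CPM in control-ASO and 18686 to 43327 CPM in Smyd3-ASO mice. In bulk liver, fewer cells of a type and less RNA per cell cannot be told apart. Plasma cells also carry much ER, and their 6 tested markers summed to 61.0 to 171 CPM in untreated, 103 to 120 CPM in P133, 146 to 196 CPM in control-ASO and 98.8 to 224 CPM in Smyd3-ASO mice. Another listed marker, Tnfrsf17, had at most 3 counts in a mouse and is not in the sum. The part of these markers in the results was not tested.

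Within groups, 3 mice stood farthest apart in Dbp, an output gene of the circadian clock. Untreated mouse 5 had 13.0 CPM of Dbp against 92.1 to 119 CPM in the other untreated mice. Control-ASO mice 1 and 2 had 9.48 and 11.6 CPM against 93.6 to 107 CPM in the other control-ASO mice. P133 mice were at 1.53 to 2.74 CPM except mouse 4 at 8.85 CPM, and Smyd3-ASO mice at 11.9 to 33.4 CPM except mouse 5 at 5.31 CPM. These 2 mice, less far from their groups, were only left out 1 at a time. All P133 and Smyd3-ASO mice lay below the other untreated and control-ASO mice in Dbp. Leaving out the 3 mice therefore widens the difference in Dbp of those groups from P133 and Smyd3-ASO mice. It evens out Dbp only in control-ASO over untreated. Results that change without these 3 mice are given both ways below, and the part of the clock in them was not tested.

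Promoter windows from RefSeq (build GRCm38.p6, 250 bases before to 50 after the start) were matched by symbol for 9 of the 10 genes, and Hyou1 is named only. Motifs were searched by their exact letters on both strands. The ER stress response element (ERSE), which ATF6 and XBP1 are known to use with the factor NF-Y, was searched as CCAAT, any 9 bases, then CCACG. It was found in Hspa5 and Creld2, and in 0.119% of 32817 windows of all genes. The second ER stress element (ERSE-II) was searched as ATTGG, any 1 base, then CCACG. It was found in Herpud1, and in 0.0366% of windows. The composite site of ATF4 and C/EBP factors (CARE) was searched as TGATG, any 1 base, then AA. It was found in Herpud1 and, 14 to 21 bases after the RefSeq start, in Trib3, and in 3.97% of windows. The short core TGACGTGG of the XBP1 element was in 0 of 9 windows of these genes and in 0.676% of all windows. A plain CCAAT box, which every ERSE and ERSE-II match also holds, was in 7 of the 9 and in 37.4% of windows. The windows of the 9 genes had a median GC content of 61.3% against 52.7% for all windows. A match is a string of letters, and binding was not measured. Distances are from the RefSeq start, which can differ from the outermost GENCODE start used for the gene positions given further on. The ERSE of Hspa5 lies in the first exon, 5′ UTR, of the GENCODE transcript that starts furthest upstream, and the CARE of Trib3 lies just upstream of the GENCODE start.

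The stretches below come from the 3 genes with an exact stress element. They are the 150 bases before the RefSeq start of Creld2 and Herpud1 and the 30 bases around the element of Hspa5, shown so that the letters of these elements can be read in their surroundings. They are written 5′ to 3′ on the gene's strand, the plus strand in all 3. Capitals mark the fixed letters of the element. Hspa5 (chr2:34772020-34772049) carries an ERSE, Creld2 (chr15:88819496-88819645) carries an ERSE read on the other strand, and Herpud1 (chr8:94386279-94386428) carries a CARE read on the other strand and then an ERSE-II.
Hspa5: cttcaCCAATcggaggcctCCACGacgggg
Creld2: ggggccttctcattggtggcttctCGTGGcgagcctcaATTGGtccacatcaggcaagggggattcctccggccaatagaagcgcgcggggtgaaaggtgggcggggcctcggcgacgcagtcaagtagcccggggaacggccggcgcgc
Herpud1: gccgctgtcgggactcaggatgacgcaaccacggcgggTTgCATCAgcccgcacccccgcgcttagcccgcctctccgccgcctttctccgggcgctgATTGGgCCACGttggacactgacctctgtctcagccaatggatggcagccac

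**Figure D1:**
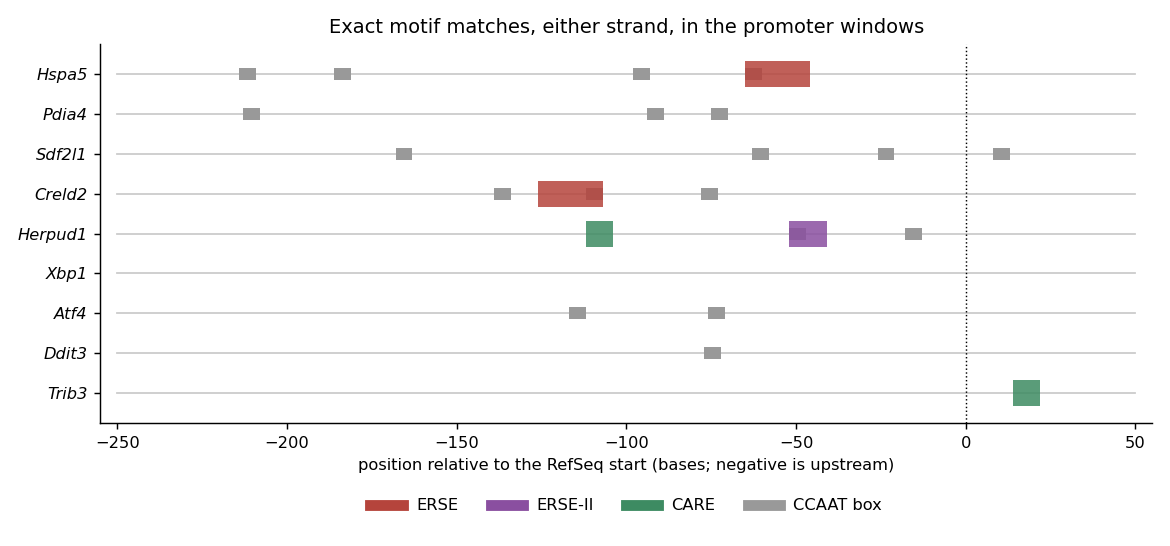
Exact matches of the ER stress element (ERSE), the second element (ERSE-II), the composite ATF4 site (CARE) and plain CCAAT boxes in the RefSeq windows of 9 genes, by distance in bases from the start. Bars span each match: the ERSE lies at -65 to -47 in Hspa5 and at -126 to -108 in Creld2, the ERSE-II at -52 to -42 and a CARE at -112 to -105 in Herpud1, and a CARE at 14 to 21 in Trib3.

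The chaperone gene Hspa5 (chr2:34771970-34777547, plus strand, mm10, as for the genes below) encodes BiP, the ATP-driven chaperone of the ER lumen that also holds the stress sensors inactive. Untreated mice 1 to 5 had 888, 818, 1085, 787 and 1793 CPM, and P133 mice had 3244, 1955, 4599 and 1657 CPM. Control-ASO mice ran from 1304 to 3132 CPM with a median of 1825, and Smyd3-ASO mice from 1226 to 3296 CPM with a median of 2610. The 4 lowest untreated mice lay below every DEN mouse, and only untreated mouse 5 lay among them. Against untreated, Hspa5 was 2.68-fold higher in P133 (log2 1.42, SE 0.33, adjusted p = 0.00733), 1.95-fold higher in control-ASO (log2 0.96, SE 0.29, adjusted p = 0.0148) and 2.25-fold higher in Smyd3-ASO mice (log2 1.17, SE 0.29, adjusted p = 0.00453). Without the mice with a shifted Dbp, these log2 changes were 1.68, 1.18 and 1.43, and all passed. For P133 and Smyd3-ASO over untreated this leaves out untreated mouse 5 only. Of 7 cytosolic heat shock genes, 6 rose in P133 over untreated (15.1% of all genes), 2 in control-ASO (23.7%) and 3 in Smyd3-ASO over untreated (24.4%). Their sum was 720 to 1109 CPM in untreated, 1219 to 2065 CPM in P133, 813 to 1967 CPM in control-ASO and 1438 to 2931 CPM in Smyd3-ASO mice. The part of these genes in the results was not tested. The P133 call of Hspa5 was lost when genes with few counts were kept in the test (adjusted p = 0.0622). Smyd3-ASO and control-ASO mice overlapped (log2 0.22, SE 0.28, adjusted p = 0.577, 95% interval -0.39 to 0.83).

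Hyou1 (chr9:44379490-44392369, plus strand) encodes a large chaperone that helps BiP exchange its nucleotide. Untreated mice 1 to 5 had 44.1, 35.7, 62.4, 29.8 and 189 CPM, P133 mice had 88.8, 145, 253 and 48.3 CPM, control-ASO mice ran from 22.6 to 78.8 CPM and Smyd3-ASO mice from 27.4 to 117 CPM. Untreated mouse 5 was above 3 of the 4 P133 mice, and no comparison was called. The nearest was control-ASO against P133 (log2 -1.50, SE 0.49, adjusted p = 0.0505), which DESeq2, limma voom and the authors' normalized values (limma) called. With a replicate block P133 over untreated passed (log2 1.45, adjusted p = 0.00321). A mouse whose number the other group lacks, here untreated mouse 5, adds nothing to the change in that fit. Leaving out only untreated mouse 5 gave log2 1.64 (adjusted p = 0.0677). DESeq2 called Smyd3-ASO over P133 lower (log2 -1.22, adjusted p = 0.0358).

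Pdia4 (chr6:47796141-47813430, minus strand), a disulfide isomerase that forms and reshuffles disulfide bonds, did not follow Hspa5 across the groups. It had 9.56, 8.06, 12.5, 10.2 and 21.1 CPM in untreated mice and 3.37, 4.41, 4.44 and 5.06 CPM in P133 mice. Every P133 mouse lay below every untreated mouse, and Pdia4 was 2.81-fold lower there (log2 -1.49, SE 0.28, adjusted p = 0.00103). Control-ASO mice ran from 3.04 to 12.3 CPM (median 6.83) and Smyd3-ASO mice from 5.90 to 13.9 CPM (median 11.0). Smyd3-ASO mice were 2.43-fold above P133 mice with no overlap (log2 1.28, SE 0.26, adjusted p = 0.00427). Against untreated, control-ASO gave log2 -0.86 (SE 0.35, adjusted p = 0.0604), and DESeq2, limma voom, the 4-group fit, the replicate block and the authors' normalized values (limma) called it lower. It was not called with DESeq2's size factors, with library totals, with genes of few counts kept or without the 3 mice with a shifted Dbp. The highest adjusted p of this change over all fits was 0.983. Against control-ASO, Smyd3-ASO gave log2 0.64 (SE 0.30, adjusted p = 0.128), which passed only without control-ASO mouse 5 (log2 0.89, adjusted p = 0.0354).

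Sdf2l1 (chr16:17130138-17132383, minus strand) belongs to an ER chaperone complex with BiP. It had 34.4, 26.2, 24.2, 21.0 and 56.8 CPM in untreated mice and 18.7, 8.82, 26.4 and 10.7 CPM in P133 mice. Control-ASO mice ran from 10.9 to 28.5 CPM (median 18.2) and Smyd3-ASO mice from 6.49 to 30.2 CPM (median 14.1). The groups overlapped in each comparison, and P133 over untreated did not pass in edgeR (log2 -1.02, SE 0.41, adjusted p = 0.0929), whereas DESeq2 (adjusted p = 0.0220), limma voom (adjusted p = 0.0326), the replicate block (adjusted p = 0.0345) and the authors' normalized values (limma, adjusted p = 0.0432) called it lower. In the block fit, untreated mouse 5 has no P133 mouse of its number and adds nothing to the change. Unlike those of Hspa5, the calls were in the lower direction. The fall against untreated was 1.83-fold in control-ASO (log2 -0.87, SE 0.30, adjusted p = 0.0304) and 2.18-fold in Smyd3-ASO mice (log2 -1.12, SE 0.36, adjusted p = 0.0216). Neither call held without untreated mouse 5, with log2 -0.58 (adjusted p = 0.0744) in control-ASO and -0.83 (adjusted p = 0.0619) in Smyd3-ASO mice. The control-ASO call was also lost without untreated mouse 1 or control-ASO mouse 2 or 6 (adjusted p = 0.0566, 0.0529 and 0.0566), and without the 3 mice with a shifted Dbp it was log2 -0.46 (adjusted p = 0.159). The 4-group fit did not make the control-ASO call, and neither call was made with genes of few counts kept.

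Creld2 (chr15:88819646-88826683, plus strand) encodes a secretory pathway protein that is a known target of ATF6. Untreated mice 1 to 5 had 13.8, 6.99, 10.6, 6.53 and 19.9 CPM and P133 mice 17.9, 11.5, 39.3 and 8.22 CPM. Control-ASO mice ran from 5.38 to 24.8 CPM and Smyd3-ASO mice from 3.92 to 18.0 CPM. The groups overlapped in all 6 comparisons and none was called. With a replicate block, P133 over untreated (log2 0.85, adjusted p = 0.0326) and Smyd3-ASO over P133 (log2 -1.10, adjusted p = 0.0268) passed, the latter also without Smyd3-ASO mouse 5 (log2 -1.40, adjusted p = 0.0458). In these block fits, untreated mouse 5 and Smyd3-ASO mice 5 and 6 have no P133 mouse of their number and add nothing to the change. The 95% interval of the log2 change of Smyd3-ASO over control-ASO was -1.67 to 0.21.

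Herpud1 (chr8:94386438-94395377, plus strand) encodes a membrane protein of the machinery that sends misfolded proteins from the ER to the proteasome. It had 433, 325, 345, 253 and 187 CPM in untreated mice and 563, 644, 498 and 603 CPM in P133 mice. Every P133 mouse was above every untreated mouse, a 1.87-fold difference (log2 0.90, SE 0.20, adjusted p = 0.00323). Control-ASO mice ran from 285 to 676 CPM (median 442) and Smyd3-ASO mice from 152 to 479 CPM (median 305). Smyd3-ASO mice all lay below the P133 mice, 1.94-fold lower (log2 -0.95, SE 0.25, adjusted p = 0.0160). Against control-ASO the difference was log2 -0.60 (SE 0.26, p = 0.0385 before and 0.105 after adjustment), and it passed without Smyd3-ASO mouse 4 (log2 -0.78, adjusted p = 0.0376). Unlike those of Hspa5, the levels of Herpud1 in Smyd3-ASO mice spanned the untreated ones (log2 -0.07, SE 0.27, adjusted p = 0.856). Control-ASO over untreated gave log2 0.54 (adjusted p = 0.080), which the replicate block and library totals called higher. That change also passed without untreated mouse 1 or without control-ASO mouse 2.

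**Figure D2:**
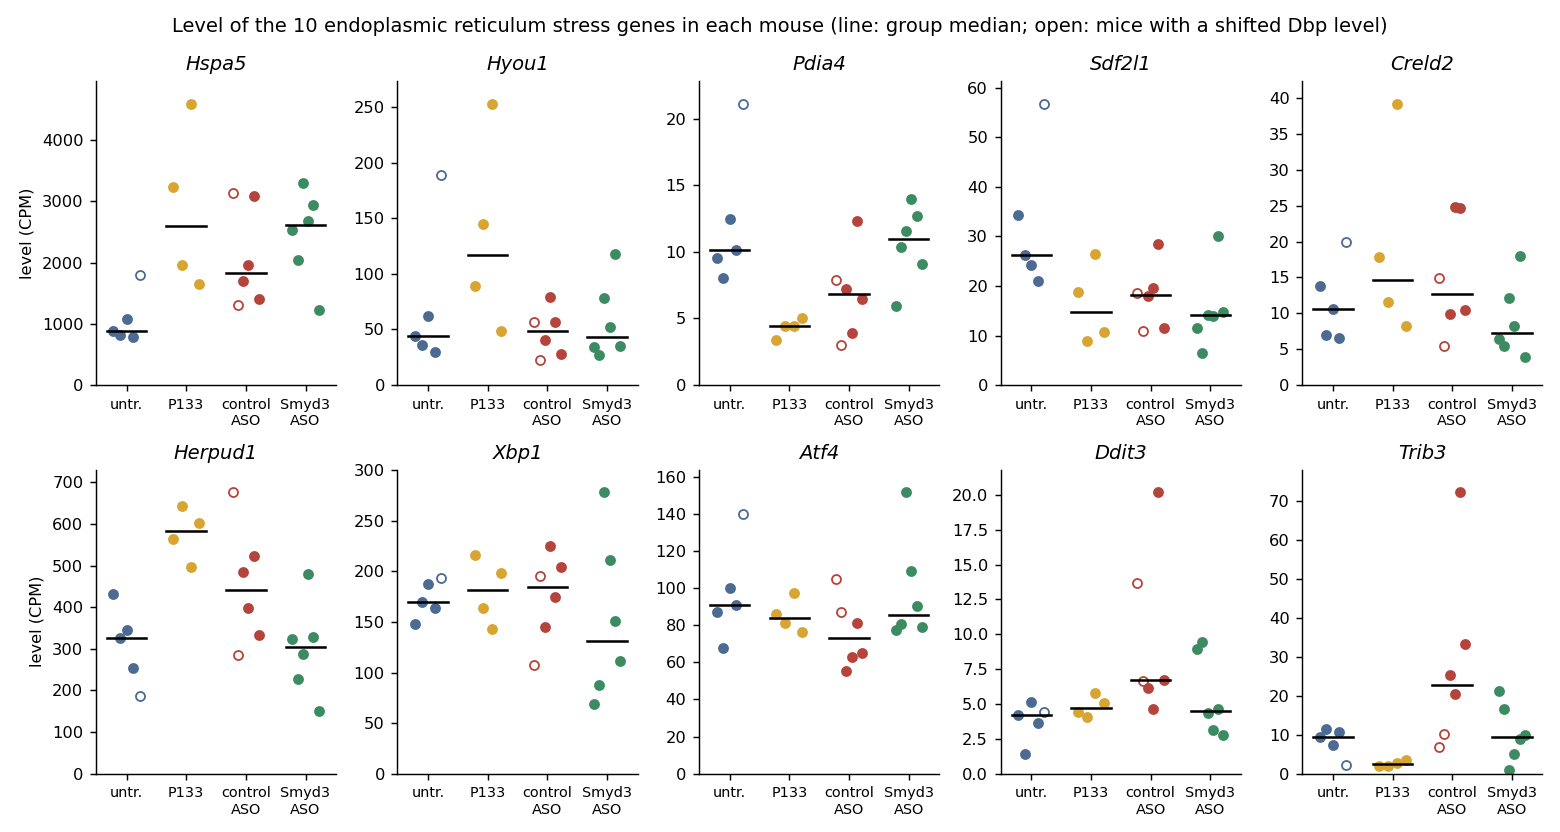
Level of each gene in CPM (linear axes from 0) for every mouse of the untreated, P133, control-ASO and Smyd3-ASO groups, with the group median as a line and the 3 mice with a shifted Dbp as open points. Hspa5 is at or above 1226 CPM in all DEN mice and at or below 1085 CPM in 4 of 5 untreated mice, while Pdia4 is at or below 5.06 CPM in all P133 mice.

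For the transcription factors Xbp1 and Atf4, none of the 6 comparisons passed. Xbp1 (chr11:5520659-5525893, plus strand) encodes the factor made active by IRE1 splicing. It had a mean of 172 ± 18.3 CPM (SD, n = 5) in untreated, 180.4 ± 33.1 CPM (n = 4) in P133, 175 ± 43.0 CPM (n = 6) in control-ASO and 151 ± 80.1 CPM (n = 6) in Smyd3-ASO mice. The spread was widest in Smyd3-ASO mice, from 69.2 to 278 CPM. Atf4 (chr15:80255184-80257541, plus strand), whose protein is made when PERK slows general translation, had 97.1 ± 26.6 CPM in untreated, 85.3 ± 9.05 CPM in P133, 76.0 ± 18.4 CPM in control-ASO and 98.1 ± 28.8 CPM in Smyd3-ASO mice. Its 95% interval for Smyd3-ASO over control-ASO was -0.08 to 0.80 on the log2 scale.

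Ddit3 (chr10:127290774-127296288, plus strand) encodes CHOP, a transcription factor linked to cell death under lasting stress. Its counts were low, 12 to 243 per mouse. It had 4.19, 1.42, 5.14, 3.63 and 4.41 CPM in untreated and 4.42, 4.07, 5.77 and 5.06 CPM in P133 mice. Control-ASO mice ran from 4.63 to 20.2 CPM (median 6.69), where mice 1 and 5 at 13.7 and 20.2 CPM were the highest, and Smyd3-ASO mice from 2.78 to 9.44 CPM (median 4.50). Ddit3 was 2.58-fold higher in control-ASO than in untreated mice (log2 1.37, SE 0.43, adjusted p = 0.0213). That call was lost without the 3 mice with a shifted Dbp (log2 1.38, adjusted p = 0.0820) and when genes with few counts were kept (adjusted p = 0.0639). Smyd3-ASO gave log2 -0.79 (SE 0.41, adjusted p = 0.165) against control-ASO. The gene overlaps Mars on the other strand, which had 144 to 1004 counts per mouse, and since the use of strand in counting is not given, reads of the pair cannot be told apart. It also overlaps another gene entry named Ddit3 on the same strand, with 0 to 7 counts per mouse. The entry with most counts was used.

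Trib3 (chr2:152337422-152344032, minus strand) encodes a pseudokinase that ATF4 and CHOP are known to induce and that binds the kinase AKT. It had 9.45, 11.6, 7.33, 10.7 and 2.14 CPM in untreated and 2.105, 1.87, 2.88 and 3.48 CPM in P133 mice. Control-ASO mice 1 to 6 had 6.89, 10.1, 25.3, 20.4, 72.4 and 33.3 CPM, and Smyd3-ASO mice 21.3, 16.7, 0.866, 5.18, 9.05 and 9.86 CPM. In untreated and control-ASO mice the lowest values were those of the mice with a shifted Dbp. Trib3 was 3.17-fold lower in P133 than in untreated mice (log2 -1.66, SE 0.43, adjusted p = 0.0107), a call that limma voom (adjusted p = 0.0807), the 4-group fit (adjusted p = 0.146) and library totals (adjusted p = 0.0587) did not make. It was 10.7-fold higher in control-ASO than in P133 mice, with no overlap (log2 3.42, SE 0.79, adjusted p = 0.0128), and there too limma voom did not call it (adjusted p = 0.0594). Smyd3-ASO over P133 gave log2 2.00 (adjusted p = 0.0689), which DESeq2 and library totals called higher. That change also passed without Smyd3-ASO mouse 3 (adjusted p = 0.00389). Against untreated, Trib3 was 3.37-fold higher in control-ASO mice (log2 1.75, SE 0.65, adjusted p = 0.0486). That call was lost on leaving out any 1 of 9 of the 11 mice (untreated mouse 1, 2, 3, 4 or 5 or control-ASO mouse 3, 4, 5 or 6), with log2 1.20 without control-ASO mouse 5, and it was not made by limma voom (adjusted p = 0.0724), with genes of few counts kept (adjusted p = 0.0969) or with a replicate block (log2 1.20, adjusted p = 0.375). Without the 3 mice with a shifted Dbp it stood at log2 1.94 (adjusted p = 0.00632). Smyd3-ASO gave log2 -1.42 (SE 0.68, adjusted p = 0.143) against control-ASO. Without control-ASO mice 1 and 2, whose Dbp lay within the range of the Smyd3-ASO mice, it was log2 -1.85 (adjusted p = 0.0710).

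By comparison, the 10 genes split as follows, beside the share of all 15297 genes. In P133 over untreated, Hspa5 and Herpud1 were higher and Pdia4 and Trib3 lower, 2 of 10 each way, where 15.1% of all genes were called higher and 16.6% lower. Without overlap of mice, 1 was higher and 1 lower, against 12.6% and 14.5% of all genes. In control-ASO over untreated, Hspa5, Ddit3 and Trib3 were higher and Sdf2l1 lower, against 23.7% higher and 22.2% lower of all genes, and 0 of 10 were without overlap either way against 13.8% and 13.8%. In Smyd3-ASO over untreated, Hspa5 was higher and Sdf2l1 lower, against 24.4% and 23.2%, and 0 were without overlap against 13.9% and 14.6%. These 3 comparisons share the untreated mice.

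In control-ASO over P133, Trib3 was higher and 0 were lower, against 14.4% and 12.6%, and Trib3 alone was without overlap, against 11.3% higher and 9.99% lower. At an unadjusted p under 0.05, Hyou1 was also lower (p = 0.0137) and Ddit3 also higher (p = 0.0371) there. In Smyd3-ASO over P133, Pdia4 was higher and Herpud1 lower, both without overlap, against 13.1% and 11.7% called and 9.80% and 9.47% without overlap. In Smyd3-ASO over control-ASO, the comparison of the ASO itself, 0 of 10 were called by edgeR, DESeq2, limma voom or any other fit of all 12 mice, against 13.3% higher and 12.9% lower of all genes. Only Herpud1 had an unadjusted p under 0.05, and 0 of 10 were without overlap, against 5.27% and 5.83%. The median log2 change of the 10 was -0.23 there, beside 0.01 for all genes. With so few genes, these counts say nothing particular about the group.

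**Figure D3:**
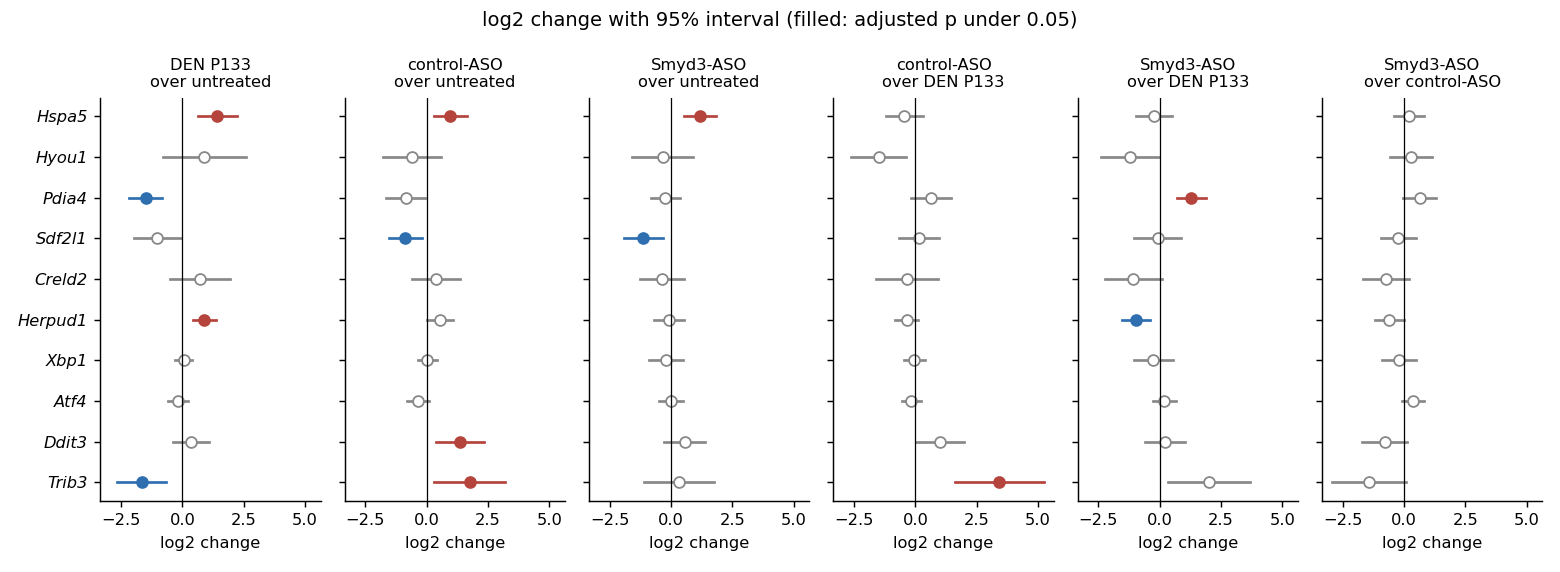
The log2 change of each gene with its 95% interval in the 6 comparisons, where filled points passed an adjusted p of 0.05 (red higher, blue lower). In the last panel, Smyd3-ASO over control-ASO, all 10 points are open.

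Scaling matters for every comparison with untreated mice, in which the 10 most abundant genes took 24.9 to 32.2% of counts, against 9.46 to 22.9% in the other mice. With plain library totals in place of TMM, the median log2 change of all 15297 genes moved over untreated from 0.06 to 0.90 for control-ASO mice, from 0.06 to 0.96 for Smyd3-ASO mice and from 0.0018 to 0.59 for P133 mice. All changes in the text are relative to the bulk of genes that TMM centres. Under library totals Hspa5 remained called higher in all 3, the falls of Sdf2l1 lost their calls (log2 -0.03 in control-ASO and -0.28 in Smyd3-ASO), and Atf4 turned from log2 -0.35 to 0.50 under control ASO and from -0.01 to 0.87 under Smyd3-ASO. Calls of all genes then split 10036 higher to 687 lower in control-ASO over untreated, 9522 to 893 in Smyd3-ASO over untreated and 6471 to 821 in P133 over untreated. Against P133 they split 3855 to 985 under control ASO and 3369 to 736 under Smyd3-ASO, with medians of 0.28 and 0.34 in place of 0.03 and 0.05.

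Between mice of the same group, part of the genes moved together. After the group means were taken off, log2 CPM was compared over the 21 mice, as a description with no test, since the mice share the scaling of their libraries. The closest were Hspa5, Hyou1, Sdf2l1 and Creld2, with Pearson r of 0.87 for Hyou1 and Creld2, 0.84 for Hspa5 and Creld2, 0.81 for Sdf2l1 and Creld2, and 0.76 for Hspa5 and Hyou1. Pdia4, which also acts in the ER lumen, had r of 0.50 with Hspa5, 0.48 with Hyou1 and 0.44 with Sdf2l1 and with Creld2, below the 0.64 of Hspa5 and Atf4. Untreated mouse 5 and P133 mouse 3 were the highest of their groups in Hspa5, Hyou1, Sdf2l1 and Creld2 alike, and also in Atf4. Of the 45 gene pairs, 9 had r over 0.5 and 9 were below 0, with a median of 0.23. Herpud1 followed Hspa5 weakly (r 0.33) and Creld2 weakly (r 0.26), and Xbp1 did not follow Hspa5 (r 0.08).

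Trib3 had an r below 0 with 7 of the other genes, and of 0.03 with Herpud1 and 0.21 with Ddit3. Its r with Atf4 was -0.78 (Spearman rho -0.70), the lowest of the 45, and its r with Hspa5 was -0.31. The Smyd3-ASO mouse with the highest Atf4, at 152 CPM, had the lowest Trib3, at 0.866 CPM. Deviations of Trib3 also followed those of Dbp (r 0.58, and 0.39 without the 2 mice farthest in Dbp, untreated mouse 5 and control-ASO mouse 1), and those of Atf4 went the other way (r -0.57, and -0.33 without them). For Hspa5 the r with Dbp was -0.33, and -0.02 without those 2 mice.

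Among 9686 genes whose mean log2 CPM was 2 or more, the 5 whose deviations were most like those of Hspa5 were Creld2 (r 0.84), Morf4l2 (0.83), Tssc4 (0.82), Ganab (0.82) and Dnajb11 (0.81). Ganab encodes a subunit of ER glucosidase II, which trims sugars in protein folding, and Dnajb11 a co-chaperone of BiP. Without the 2 mice farthest in Hspa5 (Smyd3-ASO mouse 6 and untreated mouse 5) these r ran from 0.73 to 0.81. The 5 most like Trib3 were Ppargc1b (r 0.90), Calcoco1 (0.87), Npc1 (0.85), Nr1d1 (0.84) and Gpd1l (0.81). Nr1d1 is a clock gene, and Ppargc1b a coactivator of mitochondrial genes. Without Smyd3-ASO mouse 3 and control-ASO mouse 5, the mice farthest in Trib3, these r ran from 0.75 to 0.85. Over all mice, Spearman rho with Trib3 was 0.59 for Nr1d1 and 0.72 to 0.80 for the others.

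**Figure D4:**
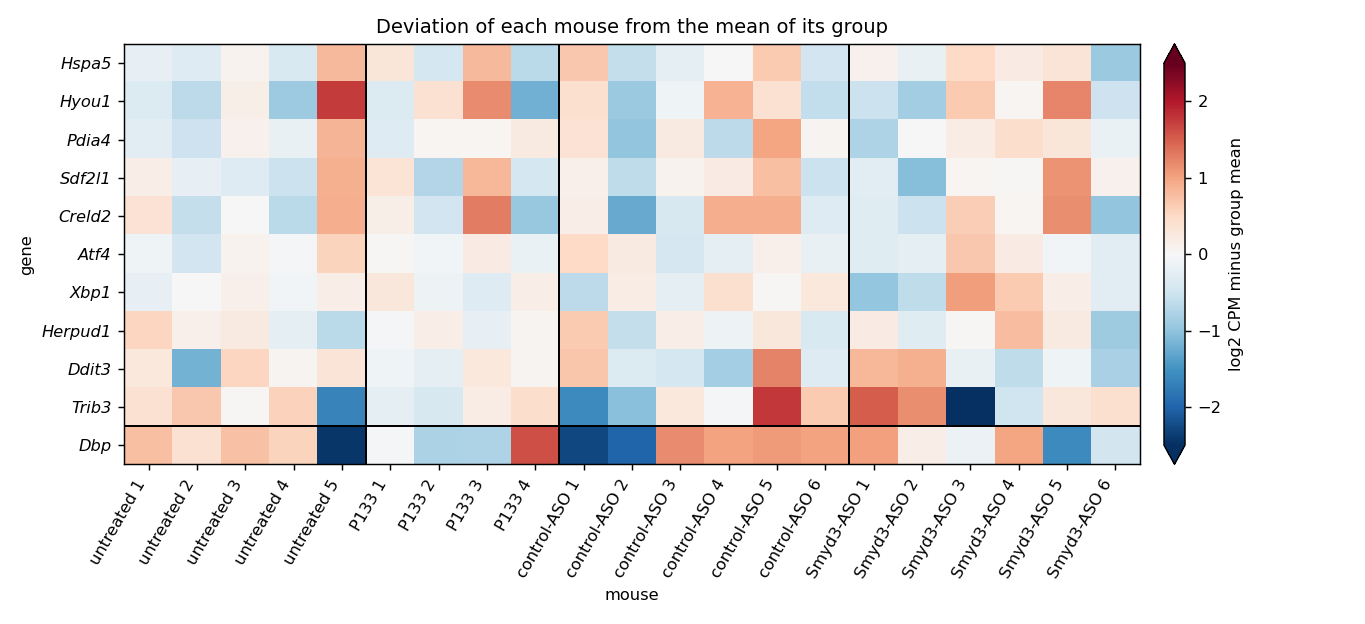
Deviation of log2 CPM from the group mean for the 10 genes and Dbp (rows) in 21 mice (columns, groups divided by lines), with red above and blue below the mean and colours ending at 2.5. Hspa5, Hyou1, Sdf2l1, Creld2 and Atf4 are all highest in untreated mouse 5 and P133 mouse 3 of their groups. Pdia4 is not highest in P133 mouse 3, and Trib3 is lowest in Smyd3-ASO mouse 3, where Atf4 is highest.

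The other genes of the pathway were taken from 6 lists with 85 genes, of which 83 were tested. Their counts are read beside the shares of all genes called, given above for each comparison. With library totals in place of TMM, where the whole distribution moved up against untreated, the counts below over untreated turned mostly to higher. Among 18 further chaperones and folding enzymes of the ER lumen, 8 fell and 1 rose in control-ASO over untreated, beside 22.2% lower and 23.7% higher of all genes, with a list median of log2 -0.37 beside 0.06. In Smyd3-ASO over untreated 10 fell and 2 rose, beside 23.2% and 24.4% of all genes, in P133 over untreated 3 fell and 4 rose, and in Smyd3-ASO over control-ASO 2 fell and 0 rose. With library totals 0 fell and 12 rose in control-ASO over untreated, and 2 fell and 6 rose in Smyd3-ASO over untreated, while the list medians of 0.48 and 0.28 were below those of all genes, 0.90 and 0.96. Calr, a calcium-binding lectin chaperone, was at 686 ± 171 CPM (SD, n = 5) in untreated and 276 ± 64.0 CPM (n = 6) in control-ASO mice (log2 -1.32, SE 0.21, adjusted p = 1.42e-04). Cnpy2 (log2 -0.89, adjusted p = 3.9e-05) and the peptidyl-prolyl isomerase Ppib (log2 -0.83, adjusted p = 1.67e-04) fell in the same comparison. Ppib fell again in Smyd3-ASO over control-ASO (log2 -0.99, SE 0.15, adjusted p = 3.72e-04), from 89.9 ± 12.5 to 45.5 ± 8.48 CPM. The reductase Dnajc10 also fell there, from 27.4 ± 9.86 to 13.3 ± 1.68 CPM (log2 -1.05, SE 0.20, adjusted p = 0.00226). Txndc5 gave log2 -0.54 (adjusted p = 0.0636).

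Among the 10 sensors and transducers, 4 rose and 1 fell in control-ASO over untreated (23.7% and 22.2% of all genes), 4 rose and 0 fell in P133 over untreated (15.1% and 16.6%), and 3 rose and 3 fell in Smyd3-ASO over untreated (24.4% and 23.2%). In Smyd3-ASO over P133, 0 rose and 3 fell (13.1% and 11.7%), and in Smyd3-ASO over control-ASO 0 rose and 1 fell (13.3% and 12.9%). Creb3l3, an ER-bound factor of hepatocytes, fell from 202 ± 48.2 CPM in untreated to 104 ± 28.9 CPM in control-ASO mice (log2 -0.96, adjusted p = 0.00142), whereas its relative Creb3l2 (log2 0.75, adjusted p = 0.00462) and Crebrf (log2 0.72, adjusted p = 0.00648) rose. Mbtps1, the protease that cuts ATF6, fell under Smyd3-ASO against control-ASO (log2 -0.38, SE 0.10, adjusted p = 0.0142), a call lost with library totals (adjusted p = 0.0522) and with genes of few counts kept (adjusted p = 0.0984). Ern1, which encodes IRE1, gave log2 -0.41 (adjusted p = 0.0790) and Creb3l3 log2 -0.30 (adjusted p = 0.262) in that comparison.

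Of 12 genes of ER-associated degradation, the pathway of Herpud1, 2 rose and 4 fell in control-ASO over untreated (23.7% and 22.2% of all genes) and 1 rose and 1 fell in Smyd3-ASO over control-ASO (13.3% and 12.9%). The falls included Edem2 (log2 -1.04, adjusted p = 2.25e-04), Os9 (log2 -0.63, adjusted p = 9.35e-04) and Derl2 (log2 -0.69, adjusted p = 0.00123), which help select or move out misfolded glycoproteins. Under Smyd3-ASO against control-ASO, Derl3 fell (from 3.75 ± 1.97 CPM under control ASO to 0.866 ± 0.852 CPM, log2 -2.19, SE 0.67, adjusted p = 0.0288). This call was lost without control-ASO mouse 1 or 5, without Smyd3-ASO mouse 4, without control-ASO mice 1 and 2 together, and with genes of few counts kept (adjusted p = 0.0866). Herpud2 rose (log2 0.45, adjusted p = 0.0191), a call lost without control-ASO mice 1 and 2 together (adjusted p = 0.0525) or with genes of few counts kept (adjusted p = 0.0570), and Edem1 gave log2 0.37 (adjusted p = 0.0715).

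Of 12 genes of translocation into the ER and traffic out of it, 2 rose and 2 fell in control-ASO over untreated (23.7% and 22.2% of all genes). Sec11c, a subunit of signal peptidase, rose from 29.9 ± 2.31 to 61.1 ± 10.7 CPM (log2 1.03, adjusted p = 2.24e-05). Srpr, the receptor of the signal recognition particle (log2 -0.94, adjusted p = 3.62e-05), and Sec63 of the translocon (log2 -0.57, adjusted p = 6.22e-04) fell. Under Smyd3-ASO against control-ASO, 2 rose and 1 fell (13.3% and 12.9% of all genes). Sec63 rose (log2 0.53, SE 0.11, adjusted p = 0.00338), from 69.6 ± 5.31 to 101 ± 10.7 CPM, beside 103 ± 10.9 CPM in untreated mice. Ssr3 of the translocon-associated complex rose too (log2 0.63, adjusted p = 0.0153), and Srprb fell (log2 -0.65, adjusted p = 0.0172), a call lost without control-ASO mice 1 and 2 together (adjusted p = 0.0520).

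The 23 tested targets of PERK and ATF4 moved in both directions. In control-ASO over untreated 8 rose and 5 fell (23.7% and 22.2% of all genes), in Smyd3-ASO over untreated 4 and 5 (24.4% and 23.2%) and in P133 over untreated 0 and 6 (15.1% and 16.6%). In control-ASO over P133 7 rose and 3 fell (14.4% and 12.6%), where limma voom gave 3 and 4, and in Smyd3-ASO over P133 2 and 3 (13.1% and 11.7%). In Smyd3-ASO over control-ASO 1 rose and 6 fell (13.3% and 12.9%). Atf5, a factor of the same response, rose from 88.5 ± 25.8 to 503 ± 165 CPM in control-ASO over untreated (log2 2.51, SE 0.25, adjusted p = 2.58e-06). Shmt2, a mitochondrial enzyme of serine metabolism, was at 183 ± 41.3 CPM in untreated and 48.5 ± 6.71 CPM in control-ASO mice and fell (log2 -1.91, adjusted p = 5.15e-07), and Eif4ebp1, an inhibitor of translation, fell (log2 -0.996, adjusted p = 3.34e-06). Phgdh, the first enzyme of serine synthesis, had 0 to 2 counts in each untreated and P133 mouse, 11 to 85 counts in control-ASO mice and 1 to 10 counts in Smyd3-ASO mice. It was called lower under Smyd3-ASO than under control ASO (adjusted p = 2.09e-04). In the same comparison Sars, a tRNA synthetase, fell (from 17.3 ± 3.01 CPM under control ASO to 6.59 ± 1.16 CPM, log2 -1.41, SE 0.16, adjusted p = 5.5e-05), and Cebpb, which encodes a C/EBP factor, rose from 39.4 ± 21.7 to 174 ± 78.4 CPM (log2 2.13, SE 0.36, adjusted p = 0.00123). Trib3 and Ddit3 lay on the same side as Sars there, and neither passed.

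Of 9 genes of stress-linked apoptosis and ER calcium, 4 rose and 0 fell in control-ASO over untreated (23.7% and 22.2% of all genes), 2 rose and 2 fell in Smyd3-ASO over untreated (24.4% and 23.2%) and 0 rose and 2 fell in Smyd3-ASO over control-ASO (13.3% and 12.9%). Bcl2l11, which encodes the death factor BIM, had 4.08 ± 0.683 CPM in untreated, 3.54 ± 1.53 CPM in P133, 13.5 ± 3.13 CPM in control-ASO and 3.94 ± 1.30 CPM in Smyd3-ASO mice. It rose in control-ASO over untreated (log2 1.73, SE 0.19, adjusted p = 6.49e-06) and fell in Smyd3-ASO over control-ASO (log2 -1.77, SE 0.23, adjusted p = 1.46e-04), with no overlap either time. Wfs1, an ER membrane protein of calcium balance, fell in Smyd3-ASO over control-ASO from 6.64 ± 2.12 to 2.44 ± 0.774 CPM (log2 -1.47, SE 0.25, adjusted p = 9.26e-04). Tnfrsf10b, a death receptor induced by CHOP, had 1 or 2 counts in each untreated mouse and 12 to 33 counts in control-ASO mice (adjusted p = 1.24e-05). Under Smyd3-ASO it gave log2 -0.73 against control-ASO (adjusted p = 0.129). Itpr1, a calcium channel of the ER, rose in control-ASO over untreated (log2 0.61, adjusted p = 0.00921). With library totals, the falls named here in control-ASO over untreated lost their calls, except that of Shmt2, and the rises kept theirs.

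**Figure D5:**
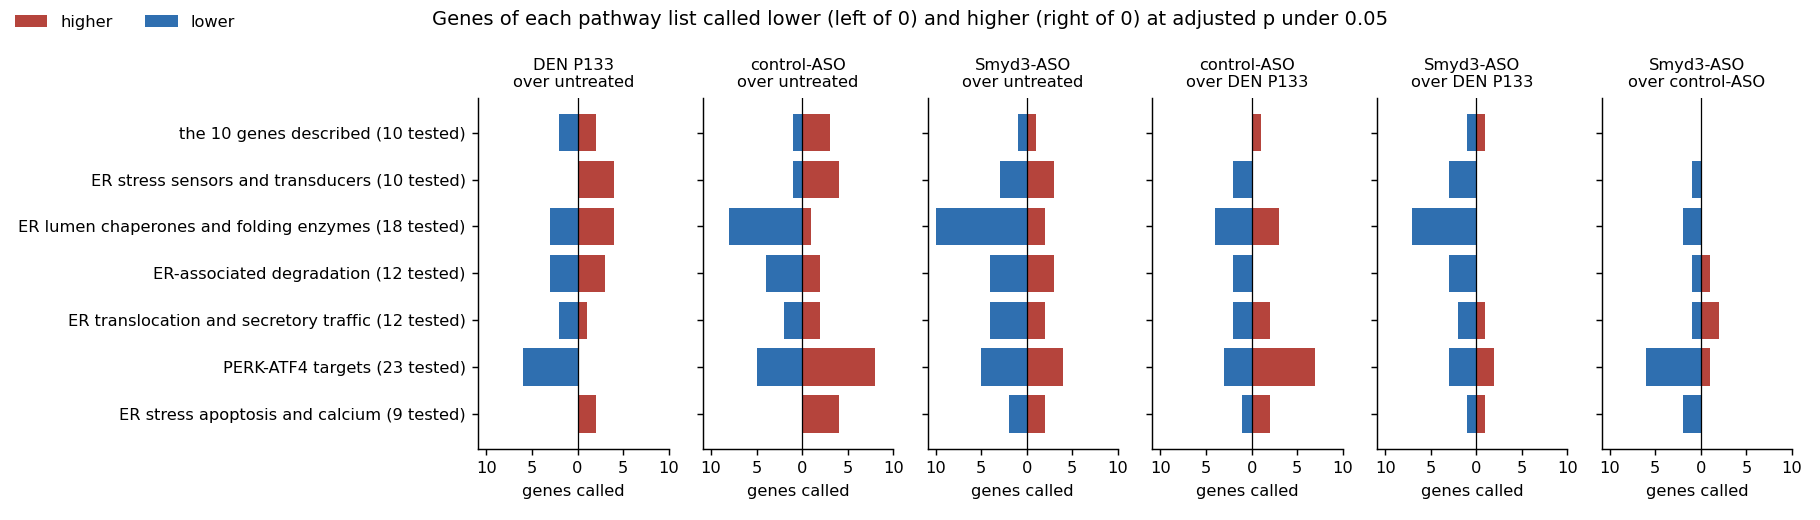
Number of genes of each list called lower (left of 0) and higher (right of 0) in the 6 comparisons, with the 10 genes in the top row and the number tested in brackets. Of 18 chaperones and folding enzymes, 8 are lower and 1 higher in control-ASO and 10 lower and 2 higher in Smyd3-ASO over untreated (22.2% and 23.2% of all genes lower; 0 and 2 lower with library totals), and of 23 targets of PERK and ATF4, 6 are lower and 1 higher in Smyd3-ASO over control-ASO.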

How the data were processed

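Liver RNA of 21 mice went into 35 libraries (QuantSeq 3' mRNA-Seq FWD, Illumina NextSeq), per the labels' protocols. The submitters' processing notes name HISAT2 2.1.0, the mm10 genome and DESeq; the counting program and its annotation are not given in the sources used here. The authors deposited a table of raw counts with 1 column per mouse, in which libraries of the same ASO mouse (1 to 3) were already merged. The authors' second deposited table holds a normalized score, and 100% of its values lay within 0.51 of the raw count over its library's size factor (median of ratios). Symbols and positions are from GENCODE vM21.

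Each comparison was fitted on its own mice with edgeR 4.0.16 in R 4.3.3 (TMM, filterByExpr over the 4 groups, robust quasi-likelihood test, two-sided, Benjamini-Hochberg over 15297 genes, threshold 0.05). On simulated counts for Smyd3-ASO over control-ASO, this fit called 55% of 100 genes changed 2-fold and 91% of 100 changed 4-fold. No other gene was changed in the simulation, whereas the data gave 2028 genes called higher and 1972 lower. With fewer changed genes the adjustment of p is stricter, so these shares are not the recovery in the data. How often a true 2-fold change was missed in that comparison is therefore not known. Alternatives used DESeq2 1.42.0, limma 3.58.1 (voom, and log2 of the score plus 1), other scaling, no filter, a replicate block and each mouse left out; leaving out the 3 mice with a shifted Dbp, and counting the pathway lists under each setting, were chosen after seeing the data. Named pathway genes are, in each list, the 3 with the smallest adjusted p in Smyd3-ASO over control-ASO and the 3 in control-ASO over untreated. Genes like Hspa5 and Trib3 were ranked by Pearson r of log2 CPM (prior count 2). The 10 genes and the lists were chosen with earlier results of these data known. Depth ran from 4556484 to 20258619 counts per mouse, which limits Ddit3, Trib3, Pdia4 and Creld2 most.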

Additional observations from a re-analysis of the deposited data

Results flagged for a closer look

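In 40 combinations of gene and group, 2 mice stood far from the rest of their group by Dixon's test, where about 1 in 20 is flagged with no true outlier. For Hyou1, untreated mouse 5 was the highest at 189 CPM, with the next untreated mouse at 62.4 CPM. For Sdf2l1, Smyd3-ASO mouse 5 was the highest at 30.2 CPM, with the next Smyd3-ASO mouse at 14.7 CPM. Without untreated mouse 5, the log2 change of Hyou1 in P133 over untreated was 1.64 (adjusted p = 0.0677), against 0.90 (adjusted p = 0.382) with it.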

How the results depend on the processing

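The calls of Hspa5 in both ASO groups over untreated, and of Pdia4 and Herpud1 in P133 over untreated and Smyd3-ASO over P133, held in every fit run, with each mouse left out in turn. Under library totals in place of TMM, 7 of the 10 genes were higher and 0 lower in control-ASO over untreated, 6 and 0 in Smyd3-ASO over untreated, 4 and 1 in P133 over untreated, and 2 were higher in each ASO group over P133. All genes called were then 10036 higher and 687 lower, 9522 and 893, 6471 and 821, 3855 and 985 in control-ASO over P133, and 3369 and 736 in Smyd3-ASO over P133. Signs turned under library totals in control-ASO over untreated for Atf4 (0.50), Mbtps1 (0.62), Ern1 (0.86), Ppib (0.0248), Txndc5 (0.0201), Herpud2 (0.80), Edem1 (0.33), Os9 (0.22), Derl2 (0.15), Sec63 (0.29), Ssr3 (0.76) and Sars (0.66), and in Smyd3-ASO over untreated for Pdia4 (0.66), Herpud1 (0.79), Xbp1 (0.64) and Atf4 (0.87). With no filter, 1 gene was higher and 0 lower in control-ASO over untreated, 0 were lower in Smyd3-ASO over untreated and 1 was higher in P133 over untreated. In control-ASO over untreated, DESeq2, limma voom, the replicate block and the authors' normalized table each gave 2 lower. DESeq2 gave 2 higher and 1 lower in control-ASO over P133 and 2 and 2 in Smyd3-ASO over P133, limma voom 0 and 1 in control-ASO over P133, and the authors' normalized values 1 lower there. The fit of all 4 groups gave 1 lower in P133 over untreated. With limma voom, 1292 of all genes were higher in Smyd3-ASO over P133. Without the mice with a shifted Dbp, an alternative chosen after seeing the data, 0 were lower in control-ASO and in Smyd3-ASO over untreated. In the latter only untreated mouse 5 was left out. The replicate numbers do not pair the mice: deviations of same-numbered mice had r of -0.12 to 0.11. A mouse whose number the other group lacks adds nothing to the change in a replicate block fit. With the replicate block, 4 of the 10 were higher in P133 over untreated and 2 lower in Smyd3-ASO over P133, and 1396 of all genes were higher and 1134 lower in control-ASO over P133. With 1 mouse left out, the 10 gave 0 to 1 higher and 0 to 1 lower in Smyd3-ASO over control-ASO (all genes 1614 to 2246 and 1583 to 2200), 2 to 4 and 0 to 2 in control-ASO over untreated (3139 to 3538 and 3069 to 3392), 1 to 1 and 0 to 1 in Smyd3-ASO over untreated (3214 to 3828 and 3220 to 3674), 2 to 2 and 2 to 3 in P133 over untreated (1856 to 2336 and 2121 to 2611), 1 to 2 and 0 to 1 in control-ASO over P133 (1650 to 2279 and 1439 to 2039), and 1 to 2 and 1 to 3 in Smyd3-ASO over P133 (1300 to 2252 and 1199 to 2030). Of 2547 values of single genes under alternatives, 2417 kept their side of the threshold, 52 lost a call and 62 gained one. In 16 the sign turned with a call in 1 of the fits. Among the 2417, the sign turned in 84 with no call in either fit. The cause was not tested. Depth limits Ddit3 and Trib3 most, with as few as 12 and 10 counts in a mouse.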
